A study of Mus musculus with 23 samples.

Results

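S100 proteins are small calcium-binding proteins, and the transcripts of 8 of their genes were followed here in mouse bone marrow-derived macrophages exposed to lipopolysaccharide (LPS). The genes were chosen by symbol (S100a1, S100a4, S100a6, S100a8, S100a9, S100a10, S100a11 and S100a13) and are 8 of 52636 genes in the deposited tables, and all 8 were among the 15782 genes with enough counts to be tested. The cells came from mice labelled Stk40 KO or Stk40 WT, Stk40 encoding a pseudokinase that binds the COP1 ubiquitin ligase. Each label was sampled after LPS at T6, T16 and T32 and untreated at T0, with 3 libraries in every group except WT at T16, which had 2, giving 12 KO-labelled and 11 WT-labelled libraries. No label or file used here gives the unit of time, the form of the Stk40 allele or the LPS dose. Nothing in the labels says that libraries of a group came from separate mice or cultures. Every WT-labelled group held both a library with Y-linked transcripts and a library without them, so no WT-labelled group came from a single mouse. No KO-labelled library had such transcripts, so the sex of the mice was not balanced between the labels. Whether the remaining libraries came from separate mice is not known. The p-values therefore measure the spread between these libraries, which may be technical. In bulk RNA, fewer cells of a type and less RNA per cell cannot be told apart.

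Most S100 proteins carry a pair of EF-hand calcium-binding motifs, form dimers and bind target proteins when calcium rises. S100A8 and S100A9 pair as calprotectin, an abundant cytosolic complex of neutrophils and monocytes that binds zinc and manganese and, once released, acts on TLR4 and on the receptor RAGE (gene Ager). S100A10 is the exception in the family that does not respond to calcium. It binds annexin A2 at membranes, S100A11 binds annexin A1, and S100A4 binds non-muscle myosin.

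All 8 genes lie on mouse chromosome 3 (GRCm38, GENCODE annotation). S100a1 (90511034 to 90514392, minus strand), S100a13 (90514435 to 90524581, plus), S100a4 (90603771 to 90606045, plus), S100a6 (90612882 to 90624181, plus), S100a8 (90668978 to 90670035, plus) and S100a9 (90692632 to 90695721, minus) lie within one stretch of 185 kb. In it S100a1 and S100a13 start back to back, 42 bases apart. Genes between the members were not listed. S100a11 (93520488 to 93526287, plus) and S100a10 (93555080 to 93564643, plus) sit 2.82 Mb further on. An annotated predicted gene, Gm42674, shares 302 exonic bases with S100a4. It had 0 counts in every library, and no label says how the authors' counting treated shared bases.

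The start regions of 5 members are shown because these genes took different courses after LPS although they lie on 1 chromosome: the calprotectin pair S100a8 and S100a9, S100a4 and S100a6, and S100a11, whose transcript was higher after LPS. Each is 300 bases of RefSeq's GRCm38.p6, from 250 before to 50 after the gene's start, written 5′ to 3′ on the gene's own strand. Capitals mark matches on either strand to 3 motifs, C/EBP (TTNNGCAA), AP-1 (TGANTCA) and NF-kB (GGG and CC with any 5 bases between them).
S100a8, chr3:90668821-90669120, plus strand: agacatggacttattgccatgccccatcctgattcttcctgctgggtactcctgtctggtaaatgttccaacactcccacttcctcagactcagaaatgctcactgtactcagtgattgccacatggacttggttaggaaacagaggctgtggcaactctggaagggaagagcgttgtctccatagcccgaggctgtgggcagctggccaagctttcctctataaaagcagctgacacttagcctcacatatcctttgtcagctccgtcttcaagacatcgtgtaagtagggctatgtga
S100a9, chr3:90695672-90695971, minus strand: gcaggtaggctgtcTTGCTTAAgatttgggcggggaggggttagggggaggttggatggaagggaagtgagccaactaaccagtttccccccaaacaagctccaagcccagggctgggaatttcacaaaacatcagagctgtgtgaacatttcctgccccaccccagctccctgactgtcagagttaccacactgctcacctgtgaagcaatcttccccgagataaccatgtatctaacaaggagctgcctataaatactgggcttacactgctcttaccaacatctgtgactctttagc
S100a4, chr3:90603520-90603819, plus strand: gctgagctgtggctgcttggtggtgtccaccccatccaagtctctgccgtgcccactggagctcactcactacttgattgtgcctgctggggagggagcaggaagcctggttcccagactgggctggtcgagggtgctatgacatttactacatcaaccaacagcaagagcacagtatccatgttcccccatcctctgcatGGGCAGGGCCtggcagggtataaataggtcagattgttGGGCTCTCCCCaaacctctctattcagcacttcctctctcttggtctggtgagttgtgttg
S100a6, chr3:90612644-90612943, plus strand: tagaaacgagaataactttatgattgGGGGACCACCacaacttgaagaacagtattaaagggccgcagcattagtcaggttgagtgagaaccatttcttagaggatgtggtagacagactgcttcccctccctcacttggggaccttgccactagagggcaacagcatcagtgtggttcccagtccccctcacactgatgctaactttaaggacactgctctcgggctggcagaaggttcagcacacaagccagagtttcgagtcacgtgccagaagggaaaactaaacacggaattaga
S100a11, chr3:93520246-93520545, plus strand: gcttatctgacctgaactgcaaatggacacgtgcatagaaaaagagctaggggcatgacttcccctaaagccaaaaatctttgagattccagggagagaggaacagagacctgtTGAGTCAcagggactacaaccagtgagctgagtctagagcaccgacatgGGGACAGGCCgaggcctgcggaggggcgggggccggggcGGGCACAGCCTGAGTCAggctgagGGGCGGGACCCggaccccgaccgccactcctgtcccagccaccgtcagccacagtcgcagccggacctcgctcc

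The windows differ in what they hold. The S100a9 window has 1 C/EBP match, at -236 from the start, a motif present in 10.8% of 32851 RefSeq windows of this length. The S100a11 window has 2 AP-1 matches, at -136 and -38, where 7.81% of windows have any, and 4 NF-kB matches, of which those at -24 and -23 overlap. NF-kB letters are common, in 50.8% of windows, and occurred 3 times in the S100a4 window (the matches at -11 and -10 overlap) and once in that of S100a6. None of the 3 motifs was found in the S100a8 window. A match is a string of letters, not a measured binding site, and no binding was measured here. RefSeq windows were found for 7 of the 8 members (not S100a10), and those of S100a1 and S100a13 overlap by 204 bases. The windows of S100a1 and S100a13, not shown, each held 2 NF-kB matches and no C/EBP or AP-1 match.

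Library totals lay between 19455080 and 44097733 counts, and each member had between 85 and 24950 counts in a library. Levels are given as the authors' nRPKM, reads per kilobase of gene and library depth, adjusted by a size factor, and differences as log2 fold changes from the counts, each with its standard error (SE). A gene was called where the p of edgeR's quasi-likelihood test, adjusted by Benjamini-Hochberg over all 15782 genes, was under 0.05. The targeted gene did not separate the labels in the direction a knockout name implies. Stk40 stood at 11.7, 13.95 and 12.7 nRPKM in KO-labelled untreated libraries, against 11.9, 11.7 and 8.85 in WT-labelled ones. Averaged over the 4 times it was higher in the KO-labelled libraries, by a log2 of 0.32 ± 0.08 (edgeR, adjusted p = 0.00629), and by 0.15 with library totals (adjusted p = 0.0755). A whole-gene count says nothing of which exons are missing, so the labels stand as given and every direction between them rests on the labels. Macrophage markers summed to 8446 to 17249 nRPKM in each library, and T, B and NK cell markers to 0.490 to 2.16.

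Several libraries stood apart from their groups. Mitochondrial transcripts took 0.355% of counts in KO-labelled T0 replicate 1, against 1.38% to 1.82% in the other untreated libraries. They took 0.681% in KO-labelled T6 replicate 2 and 1.10% in WT-labelled T6 replicate 2, against 0.351% to 0.474% in the other T6 libraries. Both of these T6 libraries were also the high ones of their groups for S100a4, S100a6 and S100a13. The 2 WT-labelled T16 libraries differed from each other for most members. Mitochondrial transcripts took 0.389% in replicate 1 and 0.233% in replicate 2, against 0.237% to 0.243% in the KO-labelled T16 libraries. Summed macrophage markers were 11609 nRPKM in replicate 1 and 16002 in replicate 2, against 11404 to 11504 in the KO-labelled ones. With 2 libraries it cannot be told which one is unusual. Below, "the 4 libraries that stood apart" are KO-labelled T0 replicate 1, KO-labelled T6 replicate 2, WT-labelled T6 replicate 2 and WT-labelled T16 replicate 2. These 4 were chosen after the data were seen. Member calls that change without them are given beside the results. For the labels at T16, where 1 WT-labelled library then remains, log2 fold changes alone are given. A further library, KO-labelled T0 replicate 2, is not among these 4. It held transcripts of 89 genes at 10 or more times the count of any other library, among them genes known from the gut lining such as Lypd8 (4005 counts). Without it, the T16 calls of S100a9 and S100a11 in the KO-labelled libraries were lost.

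Untreated macrophages held transcripts of every member, at levels that differed widely between genes. Per length, S100a6 was the highest, with a mean of 612 ± 183 nRPKM in the KO-labelled and 570 ± 54.1 in the WT-labelled libraries (SD, n = 3 each), and S100a11 the lowest, with 10.4 ± 0.756 in the KO-labelled and 9.38 ± 1.75 in the WT-labelled ones. The order by mean was the same in both labels: S100a6, S100a4, S100a9, S100a10, S100a8, S100a1, S100a13 and S100a11. In the KO-labelled libraries the neighbours S100a6 and S100a4, S100a4 and S100a9, S100a10 and S100a8, and S100a1 and S100a13 overlapped, and in the WT-labelled ones S100a9 and S100a10, and S100a8 and S100a1. By T32 the order had changed, and S100a10 led with 114 ± 13.001 nRPKM in the KO-labelled and 74.4 ± 8.95 in the WT-labelled libraries, while S100a4, second at T0, was last. In the WT-labelled T32 libraries S100a10 overlapped S100a6 (72.4 ± 17.5 nRPKM), and in the KO-labelled ones it did not. Together the members took 0.1199% to 0.224% of all counts in KO-labelled and 0.174% to 0.194% in WT-labelled untreated libraries. At T32 they took 0.0271% to 0.0326% in KO-labelled and 0.0245% to 0.0284% in WT-labelled libraries.

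**Figure D1:**
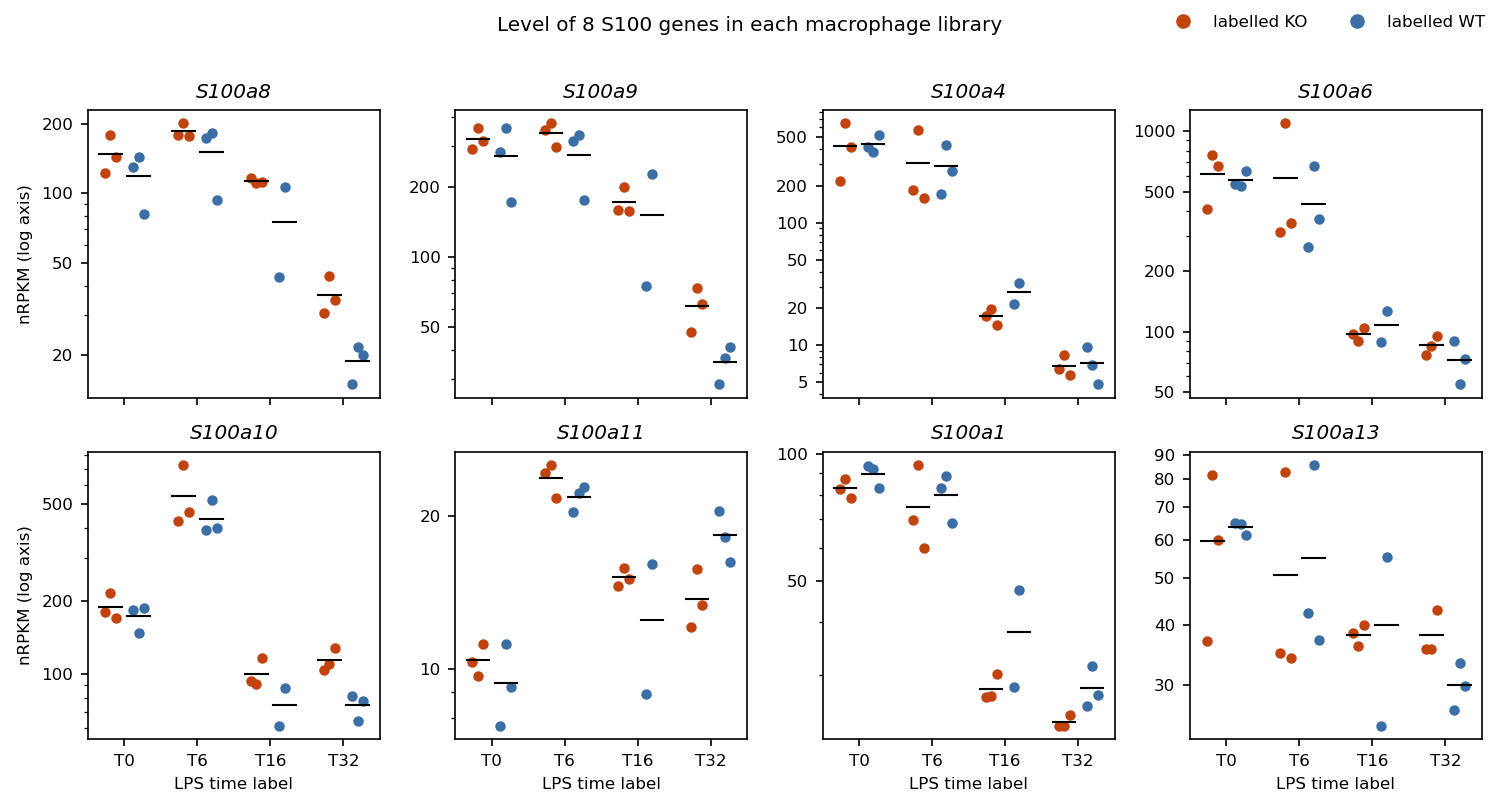
Level of each of the 8 S100 genes in nRPKM (log axis) in every library at T0, T6, T16 and T32, with KO-labelled libraries left of WT-labelled ones and the mean of each group as a line. S100a4 lies between 221 and 647 at T0 and between 4.80 and 9.69 at T32, while S100a11 stays between 7.72 and 25.3.

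The calprotectin genes stayed high through T6 and were low by T32. In KO-labelled libraries S100a8 stood at 122, 178 and 144 nRPKM at T0, 179.5, 201 and 177 at T6, 116, 111 and 112 at T16, and 30.6, 43.8 and 34.6 at T32. In WT-labelled libraries it stood at 131, 144 and 81.2 at T0, 174, 183 and 93.3 at T6, 43.8 and 107 at T16, and 14.96, 21.8 and 20.0 at T32. All 6 libraries at T32 were below all 6 untreated ones. S100a8 fell at T32 by 2.03 ± 0.29 in the KO-labelled (adjusted p = 1.7e-05) and by 2.64 ± 0.30 in the WT-labelled libraries (adjusted p = 8.5e-07) on the log2 scale. At T6 its log2 fold change was 0.22 ± 0.28 in the KO-labelled and 0.26 ± 0.28 in the WT-labelled libraries, not called in either, and with library totals in place of TMM scaling it was -0.63 in the KO-labelled (adjusted p = 0.0325) and -0.55 in the WT-labelled ones (adjusted p = 0.0605).

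S100a9, the partner chain, had the same course at a higher level. It stood at 292, 362 and 316 nRPKM in KO-labelled T0 libraries and at 47.7, 73.3 and 62.9 in KO-labelled T32 libraries. In the WT-labelled ones it stood at 284, 361 and 174 at T0 and at 28.3, 36.8 and 40.9 at T32. The 6 late libraries again lay below the 6 untreated ones, and S100a9 fell at T32 by 2.398 ± 0.33 in the KO-labelled (adjusted p = 1.14e-05) and by 2.94 ± 0.34 in the WT-labelled libraries (adjusted p = 1.09e-06). At T16 it fell by 0.92 ± 0.32 in the KO-labelled libraries (adjusted p = 0.0238; 0.0739 to 0.0765 without T0 replicate 2 or T16 replicate 1 or 3), and its log2 fold change was -0.86 ± 0.36 in the WT-labelled ones (adjusted p = 0.0673). The WT-labelled T16 libraries lay far apart, at 75.2 and 229 nRPKM. Without the second of them and the other 3 libraries that stood apart, the log2 fold change of S100a9 in the WT-labelled libraries was -1.86 ± 0.42 (adjusted p = 0.00308) and that of S100a8 -1.44 ± 0.36 (adjusted p = 0.00552), with 1 library at T16 taken to vary as the others do.

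The ratio of S100a8 to S100a9 in nRPKM moved little beside the fall of both at T32. It was 0.420 to 0.494 in KO-labelled and 0.3999 to 0.468 in WT-labelled libraries at T0, and 0.549 to 0.642 in KO-labelled and 0.489 to 0.592 in WT-labelled libraries at T32. At T16 it was 0.552 to 0.728 in KO-labelled libraries, above their T0 range, and 0.466 to 0.582 in WT-labelled ones. Most neutrophil genes moved the same way. The summed level of 15 neutrophil and granulocyte-precursor markers was 237 to 282 nRPKM in KO-labelled and 124 to 227 in WT-labelled T0 libraries, and 65.3 to 96.6 in KO-labelled and 23.8 to 30.4 in WT-labelled libraries at T32. Of the 15, all tested and all but Cxcr2 above 0 in every library, 13 fell at T32 in the KO-labelled libraries, where Mmp8 rose (log2 fold change 1.67), and 12 fell in the WT-labelled ones, among them Retnlg (log2 fold change -3.76 in KO-labelled and -4.70 in WT-labelled libraries) and Camp (-3.64 in KO-labelled and -3.76 in WT-labelled ones). Of all genes tested, 20.0% fell at T32 in the KO-labelled and 21.9% in the WT-labelled libraries. The part of the neutrophil genes in the fall of S100a8 and S100a9 was not tested.

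S100a4 had the largest change of the members. This gene encodes the myosin-binding protein also called metastasin. In KO-labelled libraries it stood at 221, 647 and 412 nRPKM at T0, 185, 571 and 159 at T6, 17.2, 19.8 and 14.7 at T16, and 6.44, 8.30 and 5.72 at T32. In WT-labelled libraries it stood at 418, 379 and 517 at T0, 172, 431 and 266.6 at T6, 21.9 and 32.4 at T16, and 9.69, 6.98 and 4.80 at T32. Every library from T16 on was below every untreated and T6 library. It fell at T32 by 5.97 ± 0.53 on the log2 scale in the KO-labelled libraries, 62.5-fold (adjusted p = 4.35e-08), and fell by 5.92 ± 0.52 in the WT-labelled ones, 60.5-fold (adjusted p = 4.19e-08). At T6 the high replicate 2 of each label kept the spread wide, and the log2 fold change was -0.59 ± 0.42 (KO-labelled) and -0.69 ± 0.42 (WT-labelled), not called. Without the 4 libraries that stood apart it was -1.72 ± 0.29 in the KO-labelled (adjusted p = 0.000108) and -1.07 ± 0.26 in the WT-labelled libraries (adjusted p = 0.0026).

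S100a6, or calcyclin, lies 6836 bases from S100a4 and followed it over a smaller range. Its KO-labelled libraries stood at 407, 759.5 and 669 nRPKM at T0, 316, 1095 and 348 at T6, and 76.7, 84.9 and 95.5 at T32. Its WT-labelled libraries stood at 548, 530.1 and 632 at T0, 264, 674 and 366 at T6, and 89.5, 54.5 and 73.1 at T32. The T6 libraries spanned the untreated range, and the T32 libraries lay wholly below it. S100a6 fell at T16 by 2.67 ± 0.40 in the KO-labelled (adjusted p = 2.21e-05) and by 2.42 ± 0.46 in the WT-labelled libraries (adjusted p = 0.000378), and fell at T32 by 2.84 ± 0.40 in the KO-labelled (adjusted p = 1.6e-05) and by 2.97 ± 0.40 in the WT-labelled ones (adjusted p = 8.55e-06). The T6 log2 fold change was -0.17 ± 0.38 in the KO-labelled and -0.48 ± 0.38 in the WT-labelled libraries, and -1.20 ± 0.19 in the KO-labelled (adjusted p = 2.01e-05) and -0.93 ± 0.18 in the WT-labelled ones (adjusted p = 0.000149) without the 4 libraries that stood apart.

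S100a10, the annexin A2 partner, was high at T6 and low afterwards. In KO-labelled libraries it stood at 179.8, 215 and 170.2 nRPKM at T0, 428, 726 and 465 at T6, 93.9, 90.8 and 116 at T16, and 104, 109.6 and 129 at T32. In WT-labelled libraries it stood at 184, 148 and 187 at T0, 391, 519 and 398 at T6, 61.2 and 87.6 at T16, and 81.6, 64.3 and 77.2 at T32. Every T6 library was above every untreated one, and every later library was below every untreated one. S100a10 rose at T6 by a log2 of 1.41 ± 0.19 in the KO-labelled (adjusted p = 2.94e-06) and 1.25 ± 0.19 in the WT-labelled libraries (adjusted p = 1.3e-05). It fell at T32 by 0.72 ± 0.19 in the KO-labelled (adjusted p = 0.00556) and by 1.21 ± 0.19 in the WT-labelled libraries (adjusted p = 5.24e-05). Its level relative to that of Anxa2 was 0.637 to 0.668 in KO-labelled and 0.588 to 0.613 in WT-labelled libraries at T6, and 0.193 to 0.256 in KO-labelled and 0.168 to 0.230 in WT-labelled libraries at T16, so the transcripts of the partners did not keep 1 ratio.

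S100a11, the annexin A1 partner, was the member that did not fall. It stood at 10.3, 9.71 and 11.2 nRPKM in KO-labelled and 7.72, 11.2 and 9.22 in WT-labelled T0 libraries. At T6 it stood at 24.3, 25.3 and 21.7 in KO-labelled and 20.4, 22.3 and 22.8 in WT-labelled libraries, above every untreated library. It rose at T6 by a log2 of 1.08 ± 0.18 in the KO-labelled (adjusted p = 4.04e-05) and 1.13 ± 0.18 in the WT-labelled libraries (adjusted p = 2.47e-05), calls that were lost with library totals (0.24 in the KO-labelled, adjusted p = 0.234, and 0.33 in the WT-labelled libraries, adjusted p = 0.113). At T32 its libraries stood at 12.1, 15.8 and 13.4 nRPKM in the KO-labelled group and at 20.5, 18.2 and 16.2 in the WT-labelled one. The T32 log2 fold change was 0.40 ± 0.18 in the KO-labelled libraries (adjusted p = 0.0896) and 0.97 ± 0.18 in the WT-labelled ones (adjusted p = 0.000261).

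S100a1, best known from heart muscle where it binds the calcium pump and the ryanodine receptor, fell late. It stood at 82.7, 87.4 and 78.6 nRPKM at T0 and 22.8, 22.7 and 24.0 at T32 in KO-labelled libraries, against 93.5, 92.1 and 83.0 at T0 and 25.3, 31.6 and 26.8 at T32 in WT-labelled ones. The untreated and T32 libraries did not overlap in either label. S100a1 fell at T32 by 1.84 ± 0.18 in the KO-labelled (adjusted p = 1.13e-07) and by 1.67 ± 0.17 in the WT-labelled libraries (adjusted p = 3.13e-07), and was called lower at T16 in both (log2 fold change -1.60 in KO-labelled and -1.26 in WT-labelled libraries). S100a13, which takes part in the release of FGF1 and IL-1 alpha, starts next to it and changed less. Its KO-labelled libraries stood at 36.9, 81.9 and 59.96 nRPKM at T0 and 35.6, 35.7 and 42.9 at T32, and its WT-labelled ones at 65.1, 64.6 and 61.4 at T0 and 26.7, 33.4 and 29.8 at T32. The KO-labelled ranges overlapped through the low replicate 1 at T0. Its T32 log2 fold change was -0.65 ± 0.35 in the KO-labelled (adjusted p = 0.147) and -1.08 ± 0.35 in the WT-labelled libraries (adjusted p = 0.0164; lost in 3 of 32 alternatives, with adjusted p of 0.054 to 0.0682), and -0.89 ± 0.12 in the KO-labelled libraries without those that stood apart (adjusted p = 8.6e-06).

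**Figure D2:**
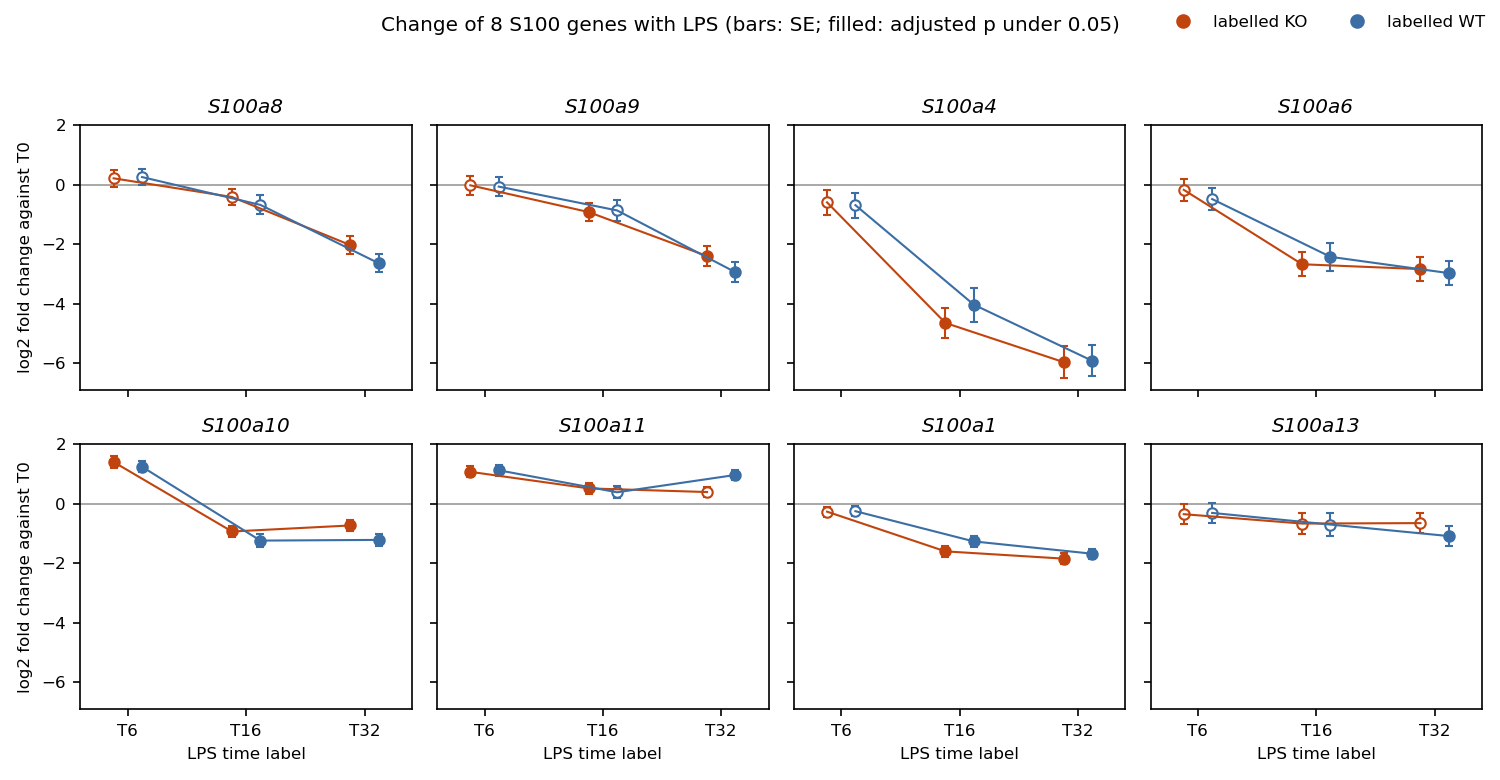
Log2 fold change of each S100 gene against T0 at T6, T16 and T32, with KO-labelled left of WT-labelled libraries bars of 1 SE and filled points past an adjusted p of 0.05. S100a10 and S100a11 are above 0 at T6, and S100a4 reaches -5.97 and -5.92 at T32.

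Counted over the 8 genes, 2 rose at T6 in each label (S100a10 and S100a11) and none fell by edgeR, by DESeq2 or at an unadjusted p under 0.05. In the background of all genes tested, 26.2% rose and 32.4% fell in the KO-labelled libraries and 27.3% rose and 31.9% fell in the WT-labelled ones. Without the 4 libraries that stood apart, 4 members fell in each label, S100a1, S100a4, S100a6 and S100a13. At T16, 1 member rose and 5 fell in the KO-labelled libraries (background 20.4% and 23.3%; the rise, that of S100a11, was not called without T0 replicate 1 or 2 or T16 replicate 2 or 3), and 4 fell and none rose in the WT-labelled ones (background 17.2% and 18.8%, with no rise by DESeq2 or at an unadjusted p under 0.05). Without the 4 libraries that stood apart 6 fell at T16 in the KO-labelled libraries, and at T32 1 rose and 7 fell in the KO-labelled ones. The share of all genes called in that fit is not given here. At T32, 6 fell in the KO-labelled libraries (background 20.0%) and 7 in the WT-labelled ones (background 21.9%). The T32 rises numbered 0 in the KO-labelled libraries (1 at an unadjusted p under 0.05, 0 by DESeq2, background 18.2%) and 1 in the WT-labelled ones (background 24.5%). The median T32 log2 fold change of the 8 was -1.93 in the KO-labelled and -2.16 in the WT-labelled libraries, against -0.02 and 0.000464 over all genes tested in the same libraries.

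Scaling by library totals in place of TMM moved the median of all genes at T6 to -0.9995 in the KO-labelled and -0.94 in the WT-labelled libraries, at T16 to -0.50 in the KO-labelled and -0.45 in the WT-labelled ones, and at T32 to -0.37 in the KO-labelled and -0.31 in the WT-labelled ones, and that between the labels to between -0.15 (T0) and -0.20 (T32). Under it 6 members fell and 1 rose at T6 in the KO-labelled libraries, and 5 fell and 1 rose in the WT-labelled ones, with S100a10 the one that rose in both. As the median of all genes was also below 0 there, and the share of all genes called is not given, these falls are not read as particular to the members. The T32 falls of S100a4, S100a6, S100a8 and S100a9 stayed called in both labels with library totals and with DESeq2's size factors.

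Between the labels, S100a8, S100a9 and S100a10 were higher and S100a11 lower in every KO-labelled than in every WT-labelled library at T32. S100a8 had 30.6, 43.8 and 34.6 nRPKM in the KO-labelled, against 14.96, 21.8 and 20.0 in the WT-labelled libraries, a log2 fold change of 0.92 ± 0.29 that missed the threshold (adjusted p = 0.0597). S100a10 had 104, 109.6 and 129 nRPKM in the KO-labelled, against 81.6, 64.3 and 77.2 in the WT-labelled libraries (log2 fold change 0.60 ± 0.19, adjusted p = 0.0682). The values of S100a9 were 0.78 ± 0.32 (adjusted p = 0.171) and those of S100a11 -0.43 ± 0.18 (adjusted p = 0.178). Of the 8 members, 6 did not overlap between the labels at T32 (36.2% of all genes tested), S100a1 being lower and S100a13 higher in the KO-labelled libraries, and S100a4 and S100a6 overlapping. By edgeR 0 of 8 were called (background 6.39% in either direction), 4 had an unadjusted p under 0.05, and DESeq2 called 2. Leaving out the 4 libraries that stood apart, S100a8 (0.93, adjusted p = 0.0213) and S100a10 (0.60, adjusted p = 0.0036) were called higher and S100a11 (-0.43, adjusted p = 0.0442) lower. Summed neutrophil markers also separated the labels at T32, at 65.3 to 96.6 nRPKM in KO-labelled and 23.8 to 30.4 in WT-labelled libraries, as they did at every earlier time. Of the 15, 2 rose, Mmp8 (log2 fold change 2.62 ± 0.29, adjusted p = 2.34e-05) and Ltf (0.99 ± 0.26, adjusted p = 0.0275), whose call was lost without any of 5 of the 6 T32 libraries (adjusted p = 0.0555 to 0.179). Of 10 stromal markers, 2 rose at T32, Pdpn (mean 78.5 nRPKM in KO-labelled and 13.9 in WT-labelled libraries) and Thy1, and none fell, while the list's median log2 fold change was -0.61 and Col1a1 had -1.11 ± 0.83 (adjusted p = 0.541). The part of these genes in the S100a8, S100a9 and S100a10 differences was not tested.

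At the earlier times the labels differed less. By edgeR 0 of 8 members were called at T0 (background 1.95%), T6 (background 0.298%) and T16 (background 7.64%), with 0, 0 and 1 at an unadjusted p under 0.05 and none by DESeq2 at any of the 3 times. At T0 the log2 fold change of S100a8 was 0.31 ± 0.28 and that of S100a9 0.23 ± 0.31, and at T6 0.27 ± 0.28 and 0.28 ± 0.31. No member separated the labels at T0 or T6, where 15.0% and 11.2% of all genes did. At T16 3 did, S100a8 and S100a10 higher and S100a4 lower in the KO-labelled libraries, beside 42.0% of all genes with only 2 WT-labelled libraries. The summed neutrophil markers separated the labels at each of these times. They were 237 to 282 nRPKM in KO-labelled and 124 to 227 in WT-labelled libraries at T0. At T6 they were 222 to 322 in KO-labelled and 131 to 207 in WT-labelled ones. At T16 they were 123 to 159 in KO-labelled and 51.2 to 100 in WT-labelled ones. The WT-labelled libraries lowest in S100a8 and S100a9 at T0 (replicate 3), T6 (replicate 3) and T16 (replicate 1) were also those with the lowest summed neutrophil markers of their group, at 124, 131 and 51.2 nRPKM. The KO-labelled libraries did not show this. Their lowest marker sums were in T0 replicate 3 (237), T6 replicate 2 (222) and T16 replicate 3 (123). Their lowest S100a8 levels were in T0 replicate 1, T6 replicate 3 and T16 replicate 2. When the 4 libraries that stood apart were left out, S100a8 had a log2 fold change of 1.34 ± 0.36 at T16 and S100a10 0.69 ± 0.19. Each was then set against the lone WT-labelled replicate 1. Over 32 alternative fits S100a8 at T16 ran from 0.081 to 1.34, S100a10 from 0.195 to 0.69 and S100a9 from -0.41 to 1.18.

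**Figure D3:**
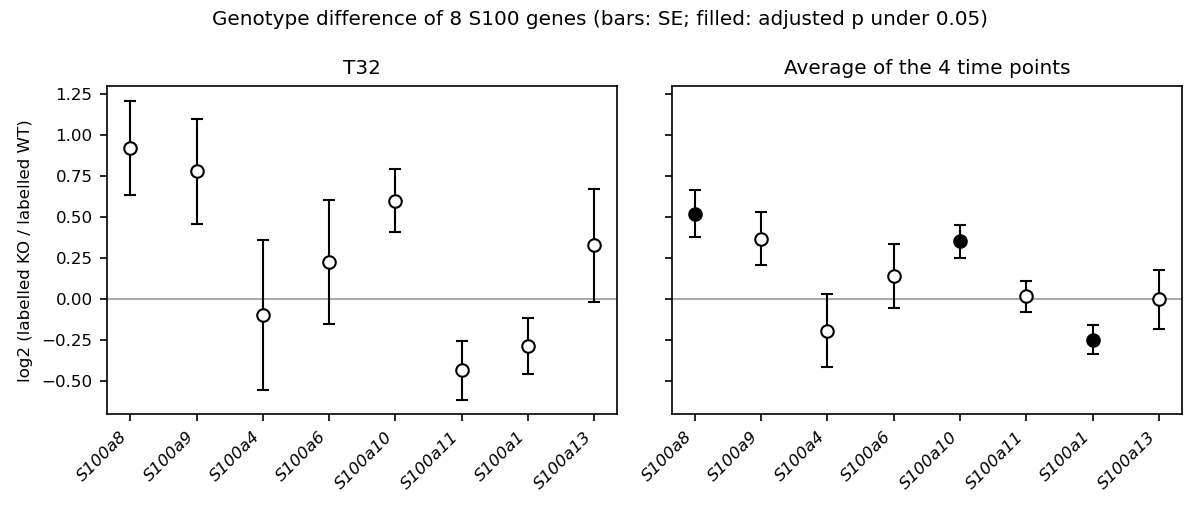
Log2 fold change of each S100 gene, KO-labelled against WT-labelled libraries, at T32 and averaged over the 4 times, with bars of 1 SE. Filled points passed an adjusted p of 0.05, which were the averaged values of S100a8 (0.52), S100a10 (0.35) and S100a1 (-0.25).

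Averaged over the 4 times, 2 members rose and 1 fell in the KO-labelled libraries, where 12.1% and 10.3% of all genes did. With library totals 940 genes rose and 4656 fell in this comparison. S100a8 was higher by a log2 of 0.52 ± 0.14 (adjusted p = 0.0137) and S100a10 by 0.35 ± 0.10 (adjusted p = 0.0144), and S100a1 was lower, with -0.25 ± 0.09 (adjusted p = 0.0471). The S100a8 call held in each of 31 alternative fits. That of S100a10 was lost in 2, with library totals (0.19, adjusted p = 0.153) and with a Y-linked covariate (0.34, adjusted p = 0.0507), and that of S100a1 in 22 of 31. S100a9 had 0.37 ± 0.16 (adjusted p = 0.109), and 0.66 ± 0.16 (adjusted p = 0.0101) without the 4 libraries that stood apart. S100a4, S100a6, S100a11 and S100a13 had -0.19 ± 0.22, 0.14 ± 0.19, 0.02 ± 0.09 and -0.000975 ± 0.18. The direction of S100a13 turned in 17 of 31 alternatives, and without the 4 libraries that stood apart it was called, at 0.21 ± 0.07 (adjusted p = 0.031). Of the neutrophil markers 5 of 15 rose in this comparison, Mmp8, Retnlg, Ly6g, Ltf and Ngp.

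Whether the LPS response itself differed between the labels was tested as the difference of the 2 log2 fold changes, KO-labelled minus WT-labelled. By edgeR 0 of 8 members passed at T6, T16 or T32 (background 0.101%, 0.0697% and 0.387%), with 0, 0 and 1 at an unadjusted p under 0.05 and none by DESeq2. At T32 the differences were 0.61 ± 0.40 for S100a8 (adjusted p = 0.746), 0.54 ± 0.45 for S100a9 (0.852), 0.49 ± 0.27 for S100a10 (0.654) and -0.57 ± 0.26 for S100a11 (0.48). The call of S100a11 at T32 in WT-labelled and not in KO-labelled libraries is therefore not shown to be a difference between them.

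**Figure D4:**
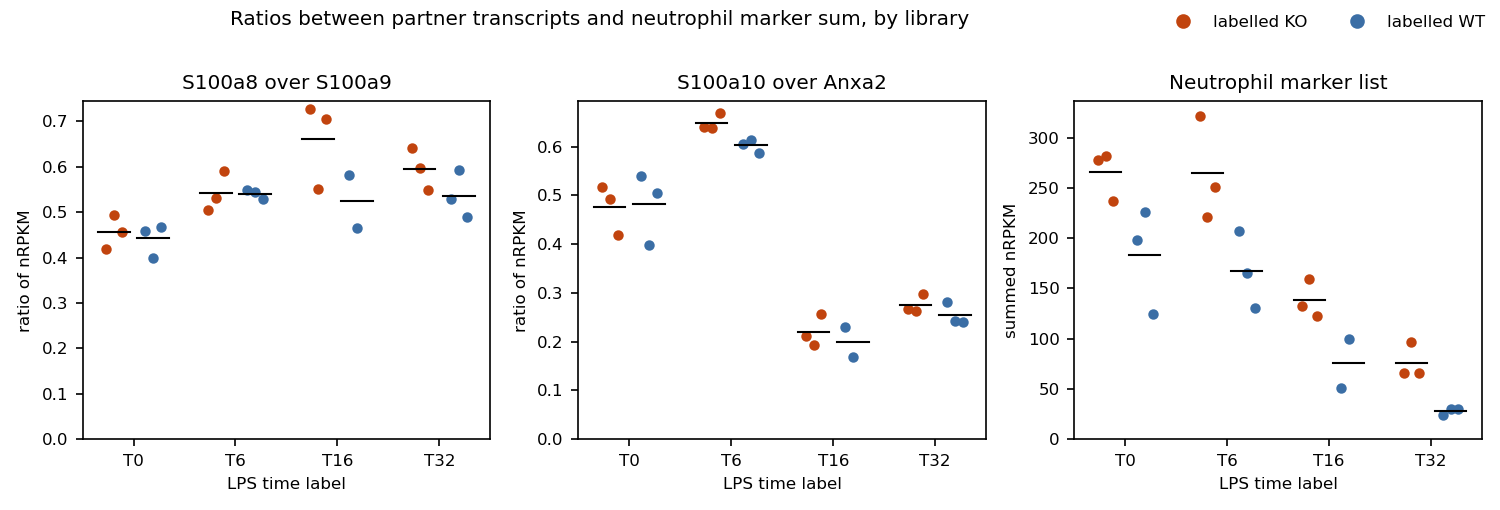
Ratio of S100a8 to S100a9 and of S100a10 to Anxa2 in nRPKM, and summed nRPKM of the 15 neutrophil markers, in every library by time, KO-labelled left of WT-labelled, with group means as lines. The first ratio lies between 0.3999 and 0.728 throughout, and the second between 0.588 and 0.668 at T6 and between 0.168 and 0.256 at T16. The marker sum is 65.3 to 96.6 in KO-labelled and 23.8 to 30.4 in WT-labelled libraries at T32.

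The annexins, the calcium-dependent membrane-binding partners of S100 proteins, and the large scaffold Ahnak, which binds S100A10 with annexin A2, formed a list of 9 genes, all tested. At T6, 6 rose and 1 fell in the KO-labelled libraries (background 26.2% and 32.4%). In the WT-labelled ones 7 rose and 1 fell (background 27.3% and 31.9%). The list medians were 0.96 in the KO-labelled and 1.25 in the WT-labelled libraries. With library totals 2 fell in each label. Anxa6 had log2 fold changes of 1.86 in KO-labelled and 2.01 in WT-labelled libraries, Anxa5 had 1.68 in KO-labelled and 1.53 in WT-labelled ones, and Anxa7 had 1.68 in KO-labelled and 1.52 in WT-labelled ones. At T32, 1 rose and 3 fell in the KO-labelled libraries (background 18.2% and 20.0%). In the WT-labelled ones 2 rose and 4 fell (background 24.5% and 21.9%). Anxa3 had -2.23 in KO-labelled and -2.17 in WT-labelled libraries. Averaged over time, 5 of the 9 rose in the KO-labelled libraries (background 12.1%), and 3 rose and 1 fell with library totals. Among the 5 were Ahnak (0.52, adjusted p = 0.00139), Anxa1 (0.48, adjusted p = 0.000599), Anxa4 (0.42, adjusted p = 0.000571) and Anxa5 (0.38, adjusted p = 0.00641). Ahnak at T16 (1.02, adjusted p = 0.0126) was not called without WT-labelled replicate 2 (0.66, adjusted p = 0.228).

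Among 8 genes for receptors of released S100 proteins and their co-receptors, all tested, 3 rose and 1 fell at T6 in the KO-labelled libraries (background 26.2% and 32.4%). In the WT-labelled ones 4 rose and 2 fell (background 27.3% and 31.9%). With library totals 2 rose and 4 fell in the KO-labelled and 1 rose and 4 fell in the WT-labelled ones. Cd14, the LPS co-receptor of TLR4, had log2 fold changes of 3.48 in KO-labelled and 2.84 in WT-labelled libraries at T6. Ly96, which encodes the TLR4 partner MD-2, had 1.44 in KO-labelled and 1.19 in WT-labelled ones (0.39 in WT-labelled ones with library totals, adjusted p = 0.101). Ager, the gene of RAGE, had -1.96 in KO-labelled and -1.50 in WT-labelled libraries at T6, and -2.09 in KO-labelled and -2.79 in WT-labelled libraries at T32. Its T6 call in the WT-labelled libraries was lost in 2 of 32 alternatives (adjusted p up to 0.119). At T32, 2 rose and 1 fell in the KO-labelled libraries (background 18.2% and 20.0%). In the WT-labelled ones 1 rose and 1 fell (background 24.5% and 21.9%). Cd36, a scavenger receptor, had 1.85 in KO-labelled and 1.26 in WT-labelled libraries, the latter call lost in 5 of 32 alternatives (adjusted p up to 0.0772). Between the labels at T32, 0 rose and 1 fell, Cd14 (-0.61 ± 0.16, adjusted p = 0.0257, lost in 4 of 32 alternatives, background 6.39% in either direction). Averaged over time 3 rose (Tlr4, Ly96 and Nptn) and 1 fell (Ager, -0.86, adjusted p = 0.0184) in the KO-labelled libraries (background 12.1% and 10.3%), and with library totals 0 rose and 3 fell. The call of Ly96 was lost in 15 of 31 alternatives, that of Nptn in 5, that of Tlr4 in 2 and that of Ager in 1. LPS acted on these cells in both labels, Nos2 having log2 fold changes of 11.79 in KO-labelled and 10.69 in WT-labelled libraries at T6, and Il1b 8.11 in KO-labelled and 7.47 in WT-labelled ones.

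Of 8 further S100 genes, 3 had enough counts to be tested (S100a7a, S100a14 and S100a16), S100a3, S100a5, S100b and S100g had too few, and S100z had 0 counts in every library. S100a7a, low in untreated cells with means of 0.503 nRPKM in KO-labelled and 0.418 in WT-labelled libraries, was lower after LPS. Its log2 fold changes were -2.86 at T6, -1.66 at T16 and -1.66 at T32 in KO-labelled libraries and -2.64, -2.21 and -2.47 at the same times in WT-labelled ones, each past the threshold, though the T16 value in WT-labelled libraries was -1.44 (adjusted p = 0.0871) without replicate 1 at T16.

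The genes whose levels ran most like a member were taken by Pearson's r of log2 CPM over the 23 libraries among 9284 genes, which share the depth and the LPS course of those libraries. S100a8 and S100a9 were closest to each other (r = 0.985) and then to Ngp, a neutrophil granule gene, at 0.969 and 0.976. S100a4 was closest to S100a6 (0.973) and Crip1 (0.972), and S100a6 to Crip1 (0.984). S100a1 was closest to Cyp4f18 (0.978) and Hexa (0.975), S100a10 to Dirc2 (0.978) and S100a13 to Sap30l (0.965). S100a11 had no gene above 0.890, the value of Apobec3, and its r with the other members ran between -0.234 and 0.386.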

How the data were processed

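Polyadenylated RNA of 23 samples labelled as bone marrow-derived macrophages was read as single-end 50-base reads from TruSeq kit libraries, per the labels' protocols, a kit that does not mark strand. GSNAP and GRCm38 are named in the submitters' processing notes, without versions, and no annotation release or counting tool is named. Per gene, the authors deposited whole-number counts and nRPKM, an RPKM that is adjusted by a size factor per the file headers. Without strand, a gene and an antisense partner cannot be told apart. Replicates are numbered within a group for naming.

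From the counts, 15782 genes passed edgeR's filterByExpr, TMM factors ran from 0.677 to 1.45, and 1 quasi-likelihood fit with the robust option over the 8 groups gave each contrast (edgeR 4.0.16, R 4.3.3, common biological coefficient of variation 0.217). Benjamini-Hochberg adjustment ran over all genes tested, at 0.05. The procedure was tested on simulated counts. The comparisons were LPS against T0 in each label, the labels at each time and averaged, and the difference between the labels' LPS responses. Comparisons at different times share their T0 libraries. Levels are nRPKM, with mean ± SD over libraries. Tables and plots used Python 3.11.15 and pandas 2.3.3.

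The members and lists were chosen with earlier results of these data known. Named genes were all 8 members, each further S100 gene that passed the filter, and Stk40, Nos2 and Il1b. To these were added at most 4 called genes per partner or receptor list and comparison, with the largest change. For likeness, at most 3 of the genes closest to each member were named, among those with a mean of at least 5 CPM. Genes named from the marker lists, and from KO-labelled T0 replicate 2, were chosen after their values were seen. Alternatives were library totals, DESeq2 1.42.0, no filter, the compared groups alone, no robust option, a Y-linked covariate and each of 23 libraries left out. After seeing the data, a replicate block, leaving out 4 WT-labelled libraries with Y-linked transcripts and leaving out 4 libraries that stood apart were added.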

Additional observations from a re-analysis of the deposited data

How the results depend on the processing

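Over 2456 repeats of a member's test, 44 turned the direction, 39 lost a call and 80 gained one. Over 1811 repeats for the other named genes, 74 lost a call, 4 gained one and none turned. Of 64 group levels of the members, 23 moved by more than 1 SD when RPKM was recomputed from the counts. The cause of each change below was not tested. Counts of members in this section are given without the share of all genes called in the same fit, so they are not read as particular to the members.

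With library totals, 1 member fell between the labels at T16 and 1 at T32, 1 rose in the average, 1 rose and 6 fell at T6 in the KO-labelled libraries, 1 rose and 5 fell at T6 in the WT-labelled ones, 0 rose at T16 in the KO-labelled and 7 fell at T16 in the WT-labelled ones. The log2 fold changes that turned with them were S100a8 at T6 (-0.63 in KO-labelled and -0.55 in WT-labelled libraries), S100a11 at T16 in the WT-labelled libraries (-0.082), and the averaged label differences of S100a6 (-0.022) and S100a11 (-0.15).

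Without the 4 libraries that stood apart, S100a8 was at 1.34 and S100a10 at 0.69 between the labels at T16, with 1 WT-labelled library left. In the average, S100a13 was at 0.21. The T6 and T32 calls that changed are given with the results above. At T16 after LPS in the WT-labelled libraries, S100a11 was at -0.072. Without the 4 libraries with Y-linked transcripts, 0 members fell in the average, S100a13 was at 0.13 there, S100a9 at T6 in the WT-labelled libraries was at 0.067, and 1 member rose at T32 in the KO-labelled ones. With the Y-linked covariate, 2 rose between the labels at T32, and in the average 0 fell and S100a13 was at 0.038. With DESeq2, 2 rose between the labels at T32, 0 fell in the average, S100a13 was at 0.015 there, and S100a9 at T6 was at 0.091 in the KO-labelled and 0.020 in the WT-labelled libraries. With the compared groups alone, 3 rose between the labels at T32, and S100a9 at T6 in the KO-labelled libraries was at 0.029. With no filter, 0 fell in the average and 0 rose at T16 in the KO-labelled libraries.

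The labels give no replicate number shared between groups. With the numbers of the deposited sample sheet as a replicate block, 1 member rose between the labels at T32, 1 fell at T6 and 7 at T16 in the WT-labelled libraries, and S100a13 was at 0.022 in the average. Same-numbered libraries had a median correlation of 0.048 in their deviations from the group means (77 pairs, from -0.51 to 0.51), against -0.017 for 154 other pairs, so the numbers were not taken as pairs.

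With each library left out in turn, between the labels 0 to 1 members fell at T16, 0 to 1 rose at T32 and 0 to 1 fell in the average. After LPS, 0 to 4 fell at T6 in the KO-labelled (4 without replicate 2 at T6) and 0 to 1 in the WT-labelled libraries, 0 to 1 rose at T16 in each label, 4 to 7 fell at T16 in the WT-labelled ones (7 without replicate 2 at T16), and 0 to 1 rose at T32 in the KO-labelled ones. Values that crossed 0 were S100a9 between the labels at T16 (-0.41 without WT-labelled replicate 1, to 1.17 without replicate 2), S100a4 at T32 (-0.31 to 0.18), the averages of S100a6 (-0.061 to 0.26), S100a11 (-0.073 to 0.13) and S100a13 (-0.13 to 0.17), S100a6 at T6 in the KO-labelled libraries (-0.99 to 0.13), S100a9 at T6 in the KO-labelled (-0.088 to 0.073) and WT-labelled ones (-0.27 to 0.21), and S100a11 at T16 in the WT-labelled ones (-0.070 to 0.75). Leaving out 1 of the WT-labelled T16 libraries leaves 1, which is taken to vary as the other groups do.

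The common biological coefficient of variation of 0.217 and groups of 2 or 3 libraries limit the label comparison, and each member had at least 85 counts in every library.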

Other observations

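Among the S100 genes that are not members, 3 had their highest counts in KO-labelled T0 replicate 2. S100g, an intestinal calcium-binding protein gene, had 110 counts in that library and at most 1 in any other. S100a14 had 104 there and 0 to 11 elsewhere, and S100a16 had 199 there and 10 to 83 elsewhere. The same library held 1086 counts of Car1, 899 of Dmbt1, 882 of Zg16, 624 of Reg3b and 415 of Krt20, genes known from intestinal epithelium, and no other library had a gene that met the same rule (at least 50 counts and 10 times any other library). With it, S100a14 had log2 fold changes of -3.40, -4.51 and -4.60 at T6, T16 and T32 in the KO-labelled libraries, all called by edgeR. Without it they were -0.34, -1.44 and -1.53, and none was called. S100a16 had -1.92 at T16 and -2.38 at T32 with the library, and -0.07 and -0.53 without it.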
